A study of Mus musculus with 6 samples.

Results

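Heat shock proteins and their DnaJ co-chaperones were examined in cultured mouse skin cells kept in normal or high glucose. The study names them endothelial cells (ECs), a label checked below against marker genes. Members were taken by symbol: protein-coding genes of the HSP90, HSP70, HSP110, small HSP and chaperonin families and of the DnaJ A, B and C families, without 6 relatives that work in the endoplasmic reticulum (ER). This gave 65 genes of the 55487 in the count table, 24 of them heat shock proteins and 41 DnaJ proteins. After the filter on low counts, 60 members were tested, namely 23 heat shock proteins and 37 DnaJ proteins. The 5 that did not pass were Dnajb8 and Dnajc5g, with 0 counts in every library, Dnajb7 with at most 9 counts in a library, Hspb3 with at most 5, and Dnajc5b with at most 2.

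Heat shock proteins keep other proteins folded. HSP70 binds unfolded stretches in a cycle driven by ATP, DnaJ proteins (J proteins, or HSP40s) bring it clients and start ATP hydrolysis, and HSP110 proteins exchange the spent nucleotide. HSP90 receives many clients from HSP70, such as kinases and steroid receptors, small HSPs hold unfolded proteins without ATP, and the mitochondrial chaperonin folds proteins inside a closed chamber. Under stress the heat shock factor HSF1 binds arrays of short DNA units in the promoters of many of these genes.

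Bulk RNA-sequencing counts came from C57BL/6 cells, isolated from the skin of 4 to 6 mice aged 2 to 3 months with beads against CD31 and then cultured. The cells were held for 48 hours in medium with normal glucose (5 mmol/L, 3 libraries) or high glucose (20 mmol/L, 3 libraries), and the comparison asks which transcripts differ with glucose. The labels do not say whether the 3 libraries of a group came from separate cultures or animals. The study's figure legends count replicates as mice, but the isolation pooled several animals, and how pools relate to libraries is not given in the sources used here. P values therefore measure the spread between these libraries, part or all of which may be technical. Total counts per library lay between 120192466 and 146881356, and a floor of 3 counts corresponded to 0.0211 to 0.0258 CPM, counts put on a common scale across libraries. Levels are given as normalized CPM, in the order of replicates 1, 2 and 3, and differences as log2 fold changes of high minus normal glucose with their SE. They were tested with edgeR's quasi-likelihood test, with P values adjusted over all 19015 genes tested and a call at an adjusted P under 0.05.

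The endothelial label was checked against 13 marker genes. Summed over the markers, the level was 216 to 243 CPM in normal and 194 to 199.8 CPM in high glucose, most of it from Eng and Flt1. Pecam1, which encodes CD31, averaged 0.128 CPM in normal and 0.103 CPM in high glucose, Cdh5 1.80 and 0.876 CPM, and Tie1, Emcn and Cldn5 were at or near 0. Of the 10 endothelial markers tested, 2 were higher (Tek at 0.66 and Erg at 1.45 on the log2 scale) and 3 lower (Cdh5, Flt1 and Egfl7). Erg rested on 5, 8 and 2 counts in normal and 14, 15 and 12 counts in high glucose (SE 0.49, adjusted P = 0.0453). The 11 fibroblast markers summed to 39093 to 42316 CPM in normal and 70994 to 75909 CPM in high glucose. Of them 8 were higher and 2, Thy1 and S100a4, were lower. Most of the sum came from the collagen genes Col1a1, Col1a2 and Col3a1. Col3a1 alone averaged 12421 CPM in normal and 32515 CPM in high glucose. The fibroblast sum was far above the endothelial sum in both groups. The markers thus did not bear out the endothelial label for the bulk of the RNA. Of 7 smooth muscle and pericyte markers 5 were lower and 1 was higher, and their sum was 617 to 695 CPM in normal and 517 to 543 CPM in high glucose. Of 18 genes of the S and G2/M phases, 17 were lower, and their sum was 444 to 456 CPM in normal and 266 to 271 CPM in high glucose. These shifts moved with glucose in the same libraries as the members described here. Their part in the members' differences was not tested, and in bulk RNA fewer cells of a type and less RNA per cell cannot be told apart.

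Promoters were searched for the DNA units that HSF1 binds, GAA and its reverse complement TTC. A pair was counted where a GAA and a TTC, in either order, had any 2 bases between them, and a triplet where 3 such units alternated. RefSeq windows on GRCm38.p6, from 250 bases before to 50 after a transcription start, were matched to 52 of the 65 members. The other 13 had no window and were not searched, among them Hsp90aa1, Hsp90ab1, Hspa8, Hspa9 and Dnajc22. A pair was present in 15 of the 52 (28.8%), against 17% of 27025 genes with a window, and a triplet in 4 (7.69%), against 0.662%. The heat shock proteins had a pair in 9 of 19 and the DnaJ proteins in 6 of 33. The triplets were at Hspd1, Hspe1, Hsph1 and Dnajb6. Hspd1 and Hspe1, which encode both parts of the mitochondrial chaperonin, lie head to head and share the same units. Below are the 150 bases before the start of Hspe1 (chr1:55087998-55088147, + strand), which fell in high glucose, of Hspa1a (chr17:34972157-34972306, - strand), a stress-inducible HSP70 that also fell, and of Hspb1 (chr5:135887769-135887918, + strand), a small HSP that was not called. They are printed from 5′ to 3′, with the GAA and TTC units of each pair or triplet in capitals.
Hspe1: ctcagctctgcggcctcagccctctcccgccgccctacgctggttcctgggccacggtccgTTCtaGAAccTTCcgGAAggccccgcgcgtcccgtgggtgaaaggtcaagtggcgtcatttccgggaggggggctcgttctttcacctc
Hspa1a: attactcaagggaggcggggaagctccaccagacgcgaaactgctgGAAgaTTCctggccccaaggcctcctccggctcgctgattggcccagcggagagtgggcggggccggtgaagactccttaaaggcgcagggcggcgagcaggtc
Hspb1: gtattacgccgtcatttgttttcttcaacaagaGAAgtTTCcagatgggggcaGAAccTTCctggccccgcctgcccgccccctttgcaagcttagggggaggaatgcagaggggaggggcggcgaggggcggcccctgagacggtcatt
In the Hspe1 sequence 4 units alternated without a break, the outermost beginning 89 bases before the start. The Hspa1a sequence held a pair beginning 104 bases before the start, and that of Hspa1b, its near copy, differed from it in 1 of 150 bases. The Hspb1 sequence held separate pairs at 117 and 97 bases. A match to these letters is a description of the window and no evidence that a factor binds there.

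In high glucose 10 heat shock proteins fell and 1 rose, whereas 3 DnaJ proteins fell and 5 rose. Among the 60 tested members, 13 were lower, 6 were higher and 41 were not called. Over all genes tested, 14.5% were called lower and 16.9% higher. The lower ones made up 43.5% of the 23 heat shock proteins and 8.11% of the 37 DnaJ proteins, and the higher ones 4.35% and 13.5%. The median log2 fold change was -0.18 over the heat shock proteins, 0.043 over the DnaJ proteins and 0.006 over all genes tested. All high glucose libraries were above all normal ones for 13 members and below them for 19. Over the 19015 genes tested these numbers were 4782 and 4042, so groups without overlap were frequent among all genes as well. Scaling by library size alone, which moved the median of all genes to -0.109, gave medians of -0.29 for the heat shock proteins and -0.07 for the DnaJ proteins, so that the sign of the DnaJ median turned. That scaling called 22 members lower and 3 higher, and 72.9% of all calls were then lower, compared with 46.2% under the scaling used here. Upper quartile factors called 19 members lower and 4 higher, with 56.5% of all calls lower.

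The counts also changed when a library was left out. Members called higher numbered 3 without high glucose replicate 1, 2 or 3, and members called lower 8, 9 and 7. Without normal glucose replicate 1 or 2, 16 members were lower, and without replicate 3, 9. Over all genes tested, calls fell too when a high glucose library was left out. Those higher went from 3212 to 2010, 2359 and 1988 without replicates 1, 2 and 3. Those lower went from 2757 to 2097, 2364 and 2048. Of the 19 calls, 10 stood under each other normalization, filter and test in which the gene was tested, under the replicate block, with any library left out and at an adjusted P under 0.01. These were Hsph1, Hsp90aa1, Hspe1, Hspa4, Hspa1b, Dnajc9 and Dnajc22 among those lower, and Dnajb2, Dnajc28 and Dnajc6 among those higher. Dnajc22 and Dnajc6 were too low to be tested under a minimum of 1 CPM in 3 libraries. Where calls also needed a log2 difference of 0.5 or more in size, Dnajc22, Dnajc9 and Dnajc6 remained.

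**Figure D1:**
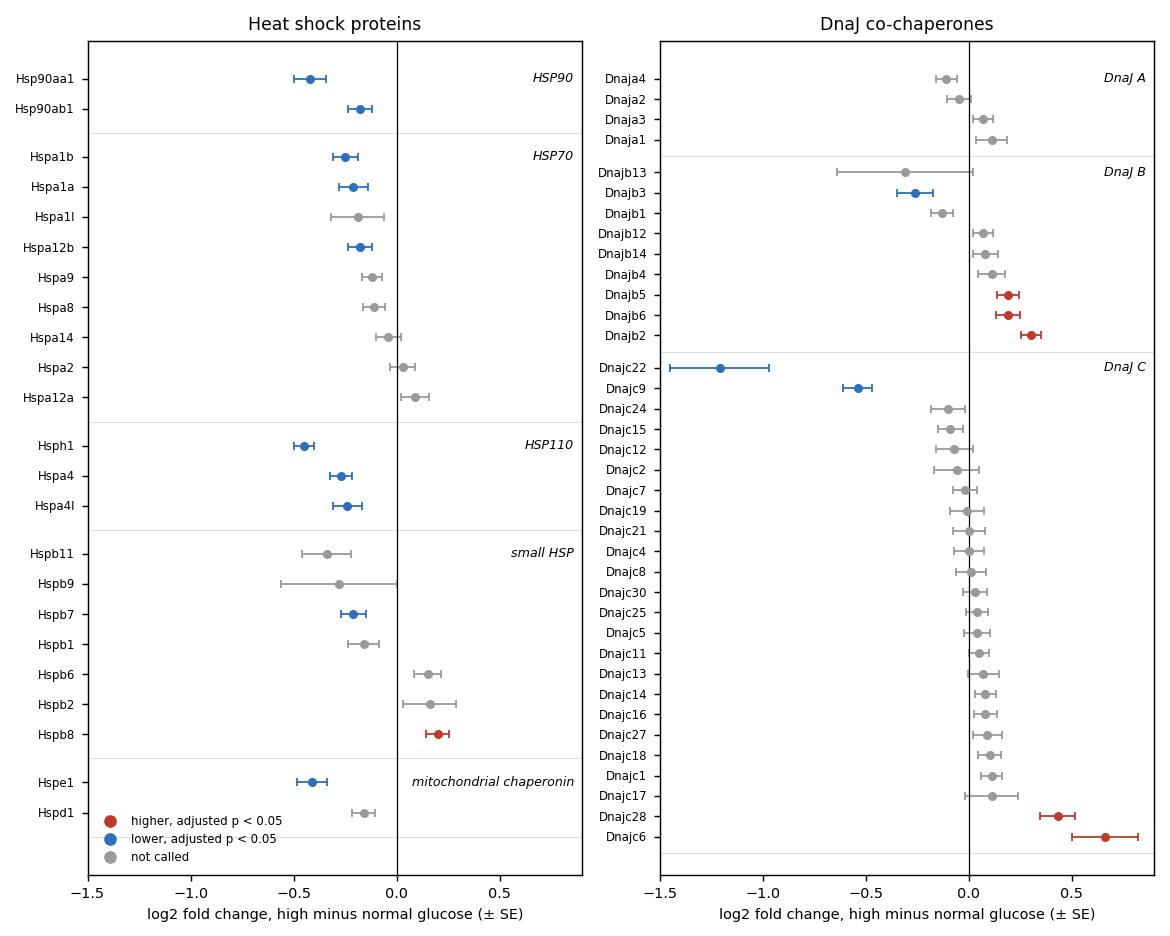
Log2 fold change (high minus normal glucose, x axis) of the 60 tested members, grouped by class, with bars of ± SE from 3 libraries per group and colour by call. In the left panel 18 of 23 heat shock proteins lie below 0, and in the right panel the 37 DnaJ proteins run from Dnajc22 (-1.21) to Dnajc6 (0.66), with 14 below and 23 above 0.

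Both cytosolic HSP90 genes fell. Hsp90aa1, the stress-inducible HSP90 alpha, had 439, 379 and 366 CPM in normal and 279, 315 and 293 CPM in high glucose. All 3 high glucose libraries were below all 3 normal ones, and the log2 fold change was -0.42 (SE 0.076, adjusted P = 0.00201), a fall of 25.1%. Hsp90ab1, the constitutive HSP90 beta, had 1298, 1138 and 1214 CPM in normal and 1066, 1067 and 1096 CPM in high glucose. Its groups did not overlap either, but the difference was smaller at -0.18 (SE 0.058, adjusted P = 0.0418). The call on Hsp90ab1 was lost without high glucose replicate 1, 2 or 3, with adjusted P values of 0.103, 0.0938 and 0.0805, and without normal glucose replicate 3, with 0.07.

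The 3 HSP110 genes, the nucleotide exchange factors of HSP70, fell as well. Hsph1, the stress-inducible member, had 192, 181 and 182 CPM in normal and 134, 139 and 134 CPM in high glucose. The groups were well apart, and the log2 fold change of -0.45 (SE 0.05, adjusted P = 8.2e-05) had the smallest adjusted P of any member. Hspa4 averaged 300.2 ± 13.1 CPM (SD, n = 3) in normal and 249.8 ± 9.35 CPM in high glucose, a difference of -0.27 (SE 0.055, adjusted P = 0.00436). Hspa4l, the least abundant of the class, averaged 17.5 ± 1.51 and 14.8 ± 0.2 CPM, a difference of -0.24 (SE 0.07, adjusted P = 0.0238). The call on Hspa4l was lost without high glucose replicate 1, 2 or 3 (adjusted P = 0.0711, 0.051 and 0.0627).

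Of the 9 HSP70 genes tested, 3 fell (33.3%, against 14.5% over all genes tested), 0 rose (against 16.9%) and 6 were not called. An unadjusted P under 0.05 and DESeq2 each gave 4 lower and 0 higher. The lower ones numbered 1 without normal glucose replicate 3 or high glucose replicate 1, 2 or 3. They numbered 5 without normal glucose replicate 1, with upper quartile factors or with library size alone. The stress-inducible Hspa1b had 38.3, 37.7 and 42 CPM in normal and 34.5, 32.8 and 31.6 CPM in high glucose. Every high glucose library was below every normal one, with a log2 fold change of -0.25 (SE 0.061, adjusted P = 0.00962). Hspa1a, its neighbour on chromosome 17, had 20.6, 20.8 and 23.8 CPM against 19.4, 18.8 and 18 CPM. These did not overlap, and the difference was -0.21 (SE 0.069, adjusted P = 0.0386), a call that was lost without normal glucose replicate 3 (0.118) and without high glucose replicate 1, 2 or 3 (0.0525, 0.0746 and 0.127). The coding sequences of Hspa1a and Hspa1b were 99.4% identical, so reads may be split between them and the values of each gene alone are uncertain.

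The constitutive HSP70s were not called. Hspa8, the housekeeping form in the cytosol, had 1229.5, 1255 and 1309 CPM in normal and 1132, 1176 and 1198 CPM in high glucose. The groups did not overlap, but the log2 fold change of -0.11 (SE 0.051, adjusted P = 0.119) did not pass. Hspa9, the mitochondrial HSP70, had 366, 352 and 359 CPM against 320.4, 336 and 332 CPM, again without overlap and again below the threshold at -0.12 (SE 0.049, adjusted P = 0.079). Both were called when normal glucose replicate 1 was left out, with adjusted P values of 0.0256 for Hspa8 and 0.0456 for Hspa9, and Hspa9 also without normal glucose replicate 2 (0.0472). With all libraries kept, upper quartile factors and library size alone called both. DESeq2 (0.0218), a minimum of 1 CPM in 3 libraries and halved counts called Hspa9. Hspa12b, a distant relative known from endothelium, averaged 29.1 ± 1.28 CPM in normal and 25.7 ± 1.11 CPM in high glucose (SD, n = 3), a fall of 0.18 on the log2 scale (SE 0.058, adjusted P = 0.0371). That call was lost without high glucose replicate 1, 2 or 3 (0.059, 0.105 and 0.0761) and without normal glucose replicate 3 (0.115).

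In the mitochondrial chaperonin, the lid fell and the barrel narrowly missed the threshold. Hspe1, the HSP10 lid, had 67.6, 54.2 and 61.1 CPM in normal and 46.5, 45.8 and 45.7 CPM in high glucose. The high glucose libraries were within 1 CPM of each other and below all normal ones, with a log2 fold change of -0.41 (SE 0.074, adjusted P = 0.00218). Hspd1, the HSP60 barrel that shares the promoter shown above, had 188, 174 and 173 CPM against 154, 167 and 157 CPM. Its groups did not overlap, and its difference of -0.16 (SE 0.056, adjusted P = 0.051) fell just outside the threshold. It passed without normal glucose replicate 1 or 2 (0.0426 and 0.036) and without high glucose replicate 2 (0.043), and in 8 settings that kept all libraries, DESeq2 among them (0.0115). The genes share 112 exonic bases on opposite strands, and whether counting used strand is not given in the sources used here.

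Of the 7 small HSPs tested, grouped by symbol alone, 1 was higher, 1 lower and 5 not called. Each direction held 14.3%, close to the 16.9% higher and 14.5% lower over all genes tested. Hspb11 had the largest difference of the class but narrowly missed the threshold, at -0.34 (SE 0.12, adjusted P = 0.0505) without overlap between groups. Hspb8, which works with BAG3 in the selective removal of damaged proteins, averaged 119.6 ± 6.46 CPM in normal and 138 ± 3.76 CPM in high glucose (SD, n = 3), a rise of 0.20 (SE 0.056, adjusted P = 0.0198). Hspb7 averaged 17.9 ± 1 and 15.4 ± 0.334 CPM, a fall of 0.21 on the log2 scale (SE 0.062, adjusted P = 0.0237). Both calls were lost without single libraries: Hspb8 without high glucose replicate 1, 2 or 3 (0.0625, 0.0975 and 0.112), and Hspb7 without high glucose replicate 2 or 3 or normal glucose replicate 3 (0.0617, 0.0736 and 0.0751). Scaling by library size alone left 0.09 for Hspb8 (adjusted P = 0.24). Hspb1, the HSP27 small chaperone, had 80.2, 65 and 74.9 CPM in normal and 65.8, 67.8 and 63.1 CPM in high glucose. These ranges overlapped through normal glucose replicate 2, and the difference of -0.16 (SE 0.075, adjusted P = 0.128) was not called, although it was without that library (-0.25, adjusted P = 0.00869).

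**Figure D2:**
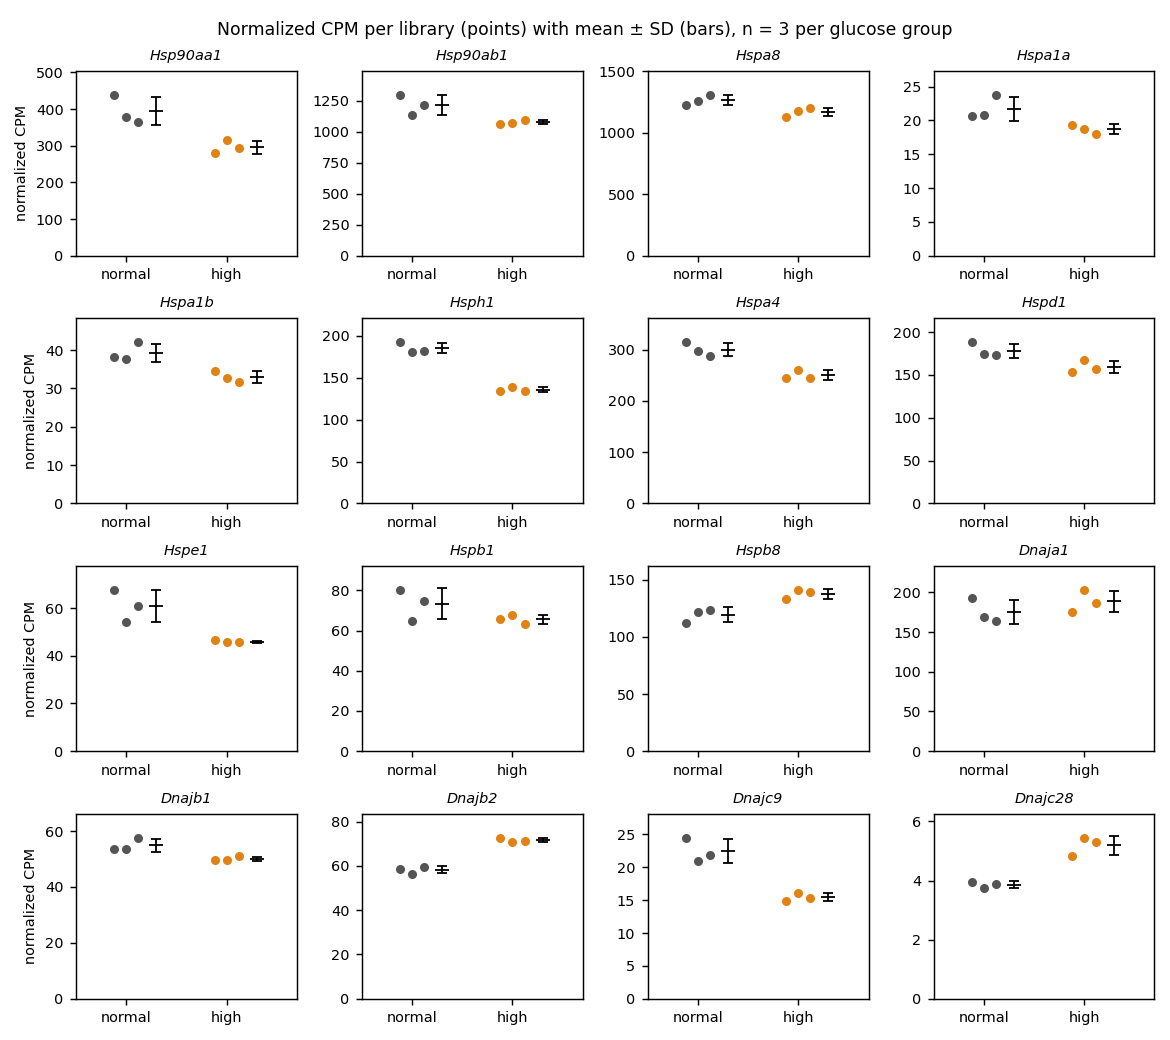
Normalized CPM (y axes, from 0) of 16 members in each of the 3 normal and 3 high glucose libraries (points), with mean ± SD beside them. Hsph1, Hsp90aa1, Hspe1 and Dnajc9 show high glucose libraries below all normal ones, Dnajb2 and Dnajc28 the opposite, and Dnaja1 and Hspb1 overlap.

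DnaJ proteins of class A are the general partners of cytosolic and mitochondrial HSP70. Of these, 0 of 4 were called by edgeR with the scaling used here or by DESeq2, and 0 had an unadjusted P under 0.05. In edgeR, upper quartile factors called 1 of them lower. Library size alone called 2 lower, Dnaja2 among them (adjusted P = 0.043). Dnaja1 had 193, 169 and 164 CPM in normal and 176, 203 and 187 CPM in high glucose. The groups overlapped, and the log2 fold change was 0.11 (SE 0.074, adjusted P = 0.313). Dnaja2, the class A gene with the highest level per length, averaged 130.4 ± 6.03 and 126 ± 6.17 CPM (SD, n = 3), a difference of -0.05 (SE 0.058, adjusted P = 0.538).

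Class B had 3 genes higher (33.3%, against 16.9% over all genes tested), 1 lower (11.1%, against 14.5%) and 5 not called of 9 tested. Dnajb2, which binds ubiquitin and hands HSP70 clients to the proteasome, had 58.6, 56.4 and 59.5 CPM in normal and 72.7, 70.8 and 71.4 CPM in high glucose. All 3 high glucose libraries were above all normal ones, with a log2 fold change of 0.30 (SE 0.049, adjusted P = 0.00105), a rise of 23.2%. Dnajb6, which holds back aggregation, averaged 117 ± 5.17 and 133 ± 7.15 CPM (SD, n = 3), and Dnajb5 averaged 22.5 ± 0.825 and 25.6 ± 0.627 CPM. Both had a difference of 0.19, with an SE of 0.058 and an adjusted P of 0.0301 for Dnajb6 and an SE of 0.053 and an adjusted P of 0.0207 for Dnajb5. Both calls were lost without high glucose replicate 1, 2 or 3 (0.0538, 0.155 and 0.123 for Dnajb6, 0.101, 0.0541 and 0.153 for Dnajb5) and without normal glucose replicate 2 (0.0739 and 0.0558), and that on Dnajb6 also without normal glucose replicate 3 (0.105). Scaling by library size alone left 0.08 for each (0.322 and 0.288), and removal of GC and length trends left 0.10 for Dnajb5 (0.158).

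Dnajb1, the stress-inducible HSP40 that partners Hspa1a and Hspa8, had 53.6, 53.6 and 57.6 CPM in normal and 49.6, 49.6 and 51 CPM in high glucose. The groups did not overlap, but the difference of -0.13 (SE 0.052, adjusted P = 0.0753) was not called. Among fits with a library left out, it was called without normal glucose replicate 1 alone (0.0217). With all libraries kept, upper quartile factors (0.0243), library size alone (0.00374) and a minimum of 1 CPM in 3 libraries (0.0405) called Dnajb1 lower. So did halved counts (0.0418) and removal of GC and length trends (0.0128). Dnajb3 averaged 3.81 ± 0.148 and 3.18 ± 0.0841 CPM (SD, n = 3), a fall of 0.26 on the log2 scale (SE 0.088, adjusted P = 0.047). Its call was lost whichever of the 6 libraries was left out, with adjusted P values from 0.0614 to 0.135.

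Class C, whose members share little beyond the J domain, had 2 genes higher, 2 lower and 20 not called of 24 tested. Each direction held 8.33%, below the 16.9% higher and 14.5% lower over all genes tested. Dnajc9, a co-chaperone that binds histones H3 and H4, had 24.5, 21 and 21.9 CPM in normal and 14.9, 16.1 and 15.3 CPM in high glucose. The groups were far apart, with a log2 fold change of -0.54 (SE 0.069, adjusted P = 2.0e-04), a fall of 31.4%. The S and G2/M genes given above fell in the same libraries, and their part in this difference was not tested. Dnajc22 had the largest difference of any member, at -1.21 (SE 0.24, adjusted P = 0.0034), but a low level of 0.359, 0.423 and 0.469 CPM against 0.219, 0.172 and 0.148 CPM. These values rest on 45, 60 and 60 counts in normal and 31, 20 and 20 counts in high glucose, and the groups did not overlap.

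The class C genes that rose were also low in level. Dnajc28 had 3.95, 3.74 and 3.9 CPM in normal and 4.83, 5.45 and 5.29 CPM in high glucose. All high glucose libraries were higher, with a log2 fold change of 0.43 (SE 0.087, adjusted P = 0.00417). Dnajc6, which encodes the clathrin-uncoating protein auxilin, had 0.599, 0.564 and 0.469 CPM against 0.874, 0.826 and 0.883 CPM. Again the groups did not overlap, and the difference was 0.66 (SE 0.16, adjusted P = 0.00875), from 60 to 80 counts per library in normal and 96 to 124 in high glucose. The other 20 lay between -0.10 and 0.11.

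Levels between genes were compared as CPM per kb of the longest annotated transcript. In normal glucose Hsp90ab1 was the highest member at 483 CPM per kb, followed by Hspa8 at 400.5. The highest of the other classes were Hspb1 at 78.9, Hspd1 at 73.6, Hspa4 at 65, Dnaja2 at 44.7, the spliceosome-associated Dnajc8 at 44.2 and Dnajb6 at 40 CPM per kb. The normal glucose libraries ranged from 451 to 515 CPM per kb for Hsp90ab1 and from 389 to 415 for Hspa8, so that these did not overlap in the order of levels. Those of Hspb1 (69.9 to 86.2) and Hspd1 (71.4 to 77.5) did overlap, as did those of Dnaja2 (43.1 to 47) and Dnajc8 (41.6 to 49.1). The stress-inducible Hspa1a and Hspa1b, at 7.32 and 14 CPM per kb, were far below the constitutive Hspa8 in both glucose groups.

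**Figure D3:**
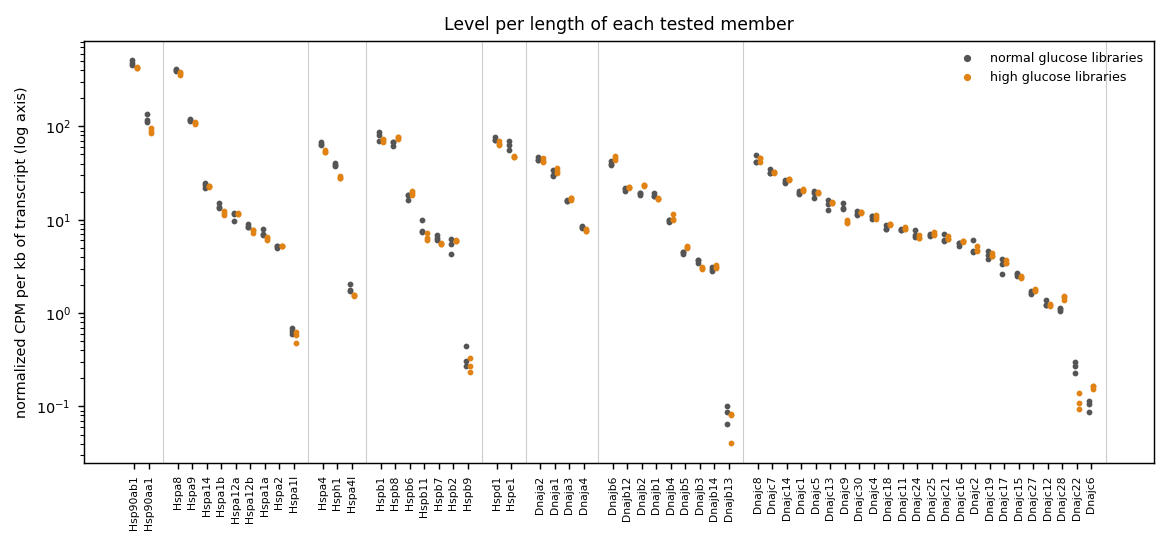
Level per length (normalized CPM per kb of the longest transcript, log axis) of the 60 tested members in each library, by class and in falling order within a class. Hsp90ab1 (483 CPM per kb in normal glucose) and Hspa8 (400.5) stand above the rest, and the groups lie close together for most members.

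Summed over all members, the level was 6276, 5977 and 6123 CPM in normal and 5564, 5791 and 5726 CPM in high glucose, a ratio of 0.93 without overlap between groups. The ratio of high to normal glucose was 0.797 for HSP110, 0.852 for HSP90, 0.859 for the mitochondrial chaperonin and 0.926 for HSP70. It was 1.02 for DnaJ A, 1.09 for DnaJ B, 1.03 for DnaJ C and 1.04 for the small HSPs. As shares of all counts, without composition factors, DnaJ A went from 0.0388% to 0.0367%, DnaJ C from 0.0942% to 0.0893% and the small HSPs from 0.0273% to 0.0261%, so the direction of these 3 sums turned with the scaling. DnaJ B had nearly the same share in both (0.0414% and 0.0418%). The 4 classes with the lowest ratios were lower on either scale.

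**Figure D4:**
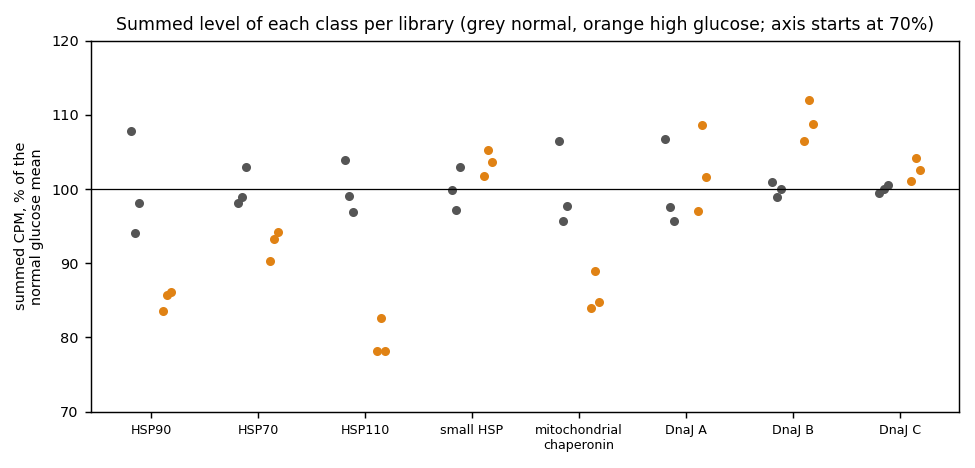
Summed normalized CPM of each class in each library, as a percentage of that class's normal glucose mean (y axis from 70%). The high glucose libraries lie below all normal ones for HSP90, HSP70, HSP110 and the mitochondrial chaperonin, and above them for DnaJ B and DnaJ C.

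Other genes of the chaperone network were taken from lists of related function. Among 36 co-chaperones of HSP90 and HSP70 that are not J proteins, 5 were higher and 3 lower, with a median log2 fold change of -0.023. These shares of 13.9% and 8.33% were below the 16.9% and 14.5% over all genes tested. The higher ones included the myosin chaperone Unc45b (0.58, adjusted P = 0.00194), Sil1, the nucleotide exchange factor of the ER HSP70 (0.38, adjusted P = 0.00128), and Bag5 (0.34, adjusted P = 0.00206). The lower ones were Fkbp5, an HSP90 immunophilin of steroid receptors (-0.32, adjusted P = 6.7e-04), Bag2 (-0.28, adjusted P = 0.00246) and the kinase-loading Cdc37 (-0.19, adjusted P = 0.0493). Hsf1, the main heat shock factor, differed by 0.02 (SE 0.065, adjusted P = 0.827), Hsf2 by -0.01 (adjusted P = 0.928), Hsf4 by 0.00 (adjusted P = 0.996) and Hsf5 by -0.80 (SE 0.45, adjusted P = 0.204) at mean levels of 0.139 and 0.0809 CPM. Hsbp1, which binds HSF1 and holds it back, fell by 0.17 on the log2 scale (adjusted P = 0.0425). The calls on Cdc37 and Hsbp1 were lost without high glucose replicate 1, 2 or 3 (0.0970, 0.0927 and 0.12 for Cdc37, 0.110, 0.0902 and 0.0805 for Hsbp1) and without normal glucose replicate 3 (0.122 and 0.052), and that on Cdc37 also without normal glucose replicate 1 (0.0564).

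Of 15 heat shock response genes outside the members, 3 were higher and 3 lower, with a median of 0.026. Each share was 20.0%, against 16.9% higher and 14.5% lower over all genes tested. Hmox1, the heme oxygenase of oxidative stress, fell by 0.86 on the log2 scale (adjusted P = 7.8e-07), Cryab, a small HSP whose symbol is outside the rule, by 0.42 (adjusted P = 9.3e-05) and the proteasome deubiquitinase Usp14 by 0.19 (adjusted P = 0.0255). Serpinh1, the collagen chaperone HSP47, rose by 0.34 (adjusted P = 9.0e-04) and Dedd2 by 0.31 (adjusted P = 0.0115). Serpinh1 moved in the same direction as 8 of the 11 fibroblast markers, Col1a1 and Col3a1 among them. The markers Thy1 (-0.40) and S100a4 (-1.27) fell. The part of these markers in the difference of Serpinh1 was not tested. In the cytosolic chaperonin TRiC and prefoldin, 3 of 15 genes were lower (20.0%, against 14.5% over all genes tested) and 0 higher, with a median of -0.159. These 3 were Cct2 (-0.27, adjusted P = 0.00269), Tcp1 (-0.25, adjusted P = 0.00377) and Cct8 (-0.19, adjusted P = 0.036). An unadjusted P under 0.05 was reached by 1 higher and 9 lower genes of this list, and DESeq2 called 0 higher and 7 lower. The lower ones numbered 7 without normal glucose replicate 2, 5 without normal glucose replicate 3 or high glucose replicate 2, and 2 without high glucose replicate 1 or 3, and without normal glucose replicate 1 there was 1 higher gene. Without high glucose replicate 1 the calls on Usp14 (0.0834), Cct8 (0.105) and Dedd2 (0.0592) were lost, as were those on Usp14 (0.0958) and Cct8 (0.112) without replicate 3 and on Dedd2 (0.0626) without replicate 2. Of 12 further mitochondrial chaperones and proteases 0 were called by edgeR with the scaling used here or by DESeq2. Of these 12, 0 had an unadjusted P under 0.05, and their median was -0.022. Without normal glucose replicate 2, 1 of them was lower, and with library size alone 5 were.

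The 6 ER relatives left out by the rule were mostly not called. Hspa5, the ER HSP70 BiP, differed by -0.02 (adjusted P = 0.885), Hspa13 by -0.02 (adjusted P = 0.815), Dnajb9 by -0.19 (adjusted P = 0.0567), Dnajb11 by -0.03 (adjusted P = 0.764) and Dnajc3 by 0.04 (adjusted P = 0.61). Dnajc10, a J protein with disulfide reductase activity, fell by 0.48 (SE 0.064, adjusted P = 3.1e-04).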

How the data were processed

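The authors deposited raw counts per gene. Their processing notes name Trimmomatic, HISAT2 and StringTie with GRCm38 (versions not given), and whether a pair of reads was counted once is not given in the sources used here. Counts in the 6 libraries (3 per group, from the labels; 120192466 to 146881356 per library) were fitted with edgeR 4.0.16 (R 4.3.3). Low genes were dropped by filterByExpr at 10 counts and 15 in total, TMM factors scaled the libraries, and quasi-likelihood P values were Benjamini-Hochberg adjusted over 19015 genes. SE is the log2 fold change over the root of F. Symbols, lengths and overlaps came from GENCODE release 21 for mouse, which held 55227 of 55487 identifiers. Floors cover counting error only, and exact permutation tests of 3 against 3 cannot go below 0.1.

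Members and lists were chosen with earlier results of these data known. Named were all called members, 12 fixed members, the highest per class, those not tested, up to 3 genes per direction in each list, the heat shock factors and the ER genes, except 1 gene that is not reported here. Alternatives were other normalizations (RLE, upper quartile, library size), filters (none, or 1 CPM in 3 libraries), DESeq2 1.42.0, the likelihood ratio test, thresholds, the replicate block, each library left out, Hspa1a and Hspa1b summed, and halved counts. Sums with named pseudogenes and removal of GC and length trends (mgcv 1.9.3) were added after the data were seen.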

Additional observations from a re-analysis of the deposited data

How the results depend on the processing

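The 19 called members kept their direction under every setting in which they were tested, and 10 kept their call under all of these but the minimum fold change. Members called higher, 6 here, numbered 3 with scaling by library size alone, without a filter and at an adjusted p under 0.01, 1 at an absolute log2 fold change of at least 0.5, and 3 to 6 with a library left out. Members called lower, 13 here, numbered 22, 11, 7 and 2 in the same order and 7 to 16 with a library left out. Related chaperone genes called higher, 8 here, numbered 5 with library size alone, 1 at that fold change and 6 to 9 with a library left out. Those called lower, 11 here, numbered 36 with library size alone, 21 with upper quartile factors, 20 with DESeq2, 18 with a minimum of 1 CPM in 3 libraries or with halved counts, 7 at 0.01, 1 at that fold change and 7 to 20 with a library left out (20 without normal glucose replicate 2, 7 without high glucose replicate 1 or 3). Of all calls, 56.5% were lower with upper quartile factors, against 46.2% here. Why these counts moved was not tested, apart from the stricter thresholds, which call fewer genes by construction.

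Replicate numbers are shared by the groups. Deviations of same-numbered libraries correlated at -0.025, 0.0038 and 0.013 over all genes tested, and at -0.25, -0.22 and -0.25 over the members. These values gave no sign of pairing, but they cannot show whether such libraries shared a pool or culture. With the replicate block 5 members were higher and 10 lower, and 8 related genes were higher and 9 lower. Dnajb3, Dnajb6, Hsp90ab1 and Hspa1a were then not called.

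Low counts limited precision for Dnajb13, Hspb9, Dnajc22 and Dnajc6 (SE 0.33, 0.28, 0.24 and 0.16), and 5 members could not be tested. Dnajb3 also lost its call with DESeq2 and the likelihood ratio test (adjusted p = 0.0684 and 0.0760). Hspb11, at -0.34 and not called here (adjusted p = 0.0505), was called in 10 settings, and Hspd1, at -0.16 (adjusted p = 0.0510), in 11. With GC and length trends removed, Hsbp1 was not called (-0.08, adjusted p = 0.103).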
